A study of Mus musculus with 10 samples.

Results

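The 49 genes described here encode the machinery that copies DNA and the enzymes that make its building blocks, and they were taken by symbol from the joint count table. All 49 symbols matched 1 gene each among the 39017 genes of the table, and all 49 passed the filter on low counts that left 16216 genes for testing. Expression was measured by sequencing polyadenylated RNA from 10 lung tumor samples of male C57BL/6 mice, 5 KP and 5 KPG1. Both genotypes share the engineered alleles of the KP lung adenocarcinoma model, and KPG1 mice are in addition homozygous for a floxed allele of Slc2a1, which encodes the glucose transporter Glut1. The 5 KP libraries are the controls, and 1 of their labels gives them as heterozygous for the floxed allele while the series text calls the group wild type. Tumors were started by an adenovirus that expresses Cre recombinase from the promoter of surfactant protein C (SPC), which restricts recombination to SPC-positive cells, mainly alveolar type 2 cells. They were dissected by hand 18 weeks and 6 days later, dissociated, and depleted of CD45-positive immune cells on magnetic beads, so stromal and vascular cells remained in the samples. The labels do not say whether each library came from a separate mouse, and the p-values below measure only the spread between these libraries.

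A cell licenses each replication origin in G1 phase, when the origin recognition complex (ORC), Cdc6 and Cdt1 load the ring of Mcm2 to Mcm7 onto DNA, and geminin (Gmnn) later blocks a second loading. In S phase Cdc45 and the GINS complex turn the ring into a working helicase, DNA polymerases alpha, delta and epsilon copy the strands, and the sliding clamp Pcna, its loader and the single-strand binding protein RPA hold the fork together. Nucleotides come from de novo purine and pyrimidine synthesis, both of which draw on ribose phosphate made from glucose, and ribonucleotide reductase converts ribonucleotides to deoxyribonucleotides. Transcripts of many of these genes are made mainly by cycling cells, and in lung adenocarcinoma they are commonly read as a measure of proliferation.

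The libraries held 32427029 to 49534284 counts assigned to genes. Slc2a1, summed over all of its exons, was at 78.8, 127, 123, 109 and 71.7 CPM (counts scaled to library size and TMM factors) in KP 1 to 5 and at 47.3, 66.8, 40.8, 51.3 and 44.3 CPM in KPG1 1 to 5. All KPG1 values lay below all KP values (log2 fold change -1.01, SE 0.20, limma-voom adjusted p = 0.0675, two-sided exact permutation p = 0.00794, the smallest that 5 against 5 libraries allow). The summed level of 10 alveolar type 2 markers ranged from 19029 to 63891 CPM in KP and from 49223 to 89277 CPM in KPG1, and 10 of the 10 had fitted values above 0 in KPG1, 4 of them at unadjusted p under 0.05. Of all genes tested, 52.7% were fitted above 0, and 5.26% were higher and 6.31% lower in KPG1 at that threshold (limma-voom). The 14 leukocyte markers summed to 54.0 to 99.0 CPM in KP and 36.4 to 75.2 CPM in KPG1, with Ptprc, the gene of CD45, at 5.21 to 11 CPM and with Cd3e, Cd8a and Ncr1 at 0 counts in at least 1 library. Of the 10 leukocyte markers that were tested, 3 were lower at an unadjusted p under 0.05, S100a8, S100a9 and Itgam. The 8 endothelial markers summed to 305 to 1048 CPM in KP and 470 to 1498 CPM in KPG1, and the 8 fibroblast markers to 156 to 329 CPM and 218 to 397 CPM, all fitted above 0 and 2 of the fibroblast markers at an unadjusted p under 0.05. The 5 epithelial markers summed to 4191 to 5632 CPM in KP and 3211 to 3804 CPM in KPG1, without overlap. Of these, Krt8 and Krt18 were lower at an unadjusted p under 0.05 (limma-voom adjusted p = 0.0699 and 0.0501). The fitted log2 fold changes of Epcam, Nkx2-1 and Cdh1 were 0.05, 0.33 and -0.10. The 6 erythroid markers summed to 86.4 to 474 CPM in KP and 153 to 330 CPM in KPG1. Over the genes described here KP 5 had the lowest mean level, 3.66 log2 CPM, with the next lowest library at 4.34. KP 1 had the highest, 4.88, but KPG1 3 came close to it at 4.84. For the gene groups and for most genes printed in full the values without KP 5 or KP 1 are given beside those of all libraries. KP 5 also had the lowest summed endothelial level, 305 CPM, and KP 1 the lowest summed alveolar type 2 level, 19029 CPM. The part of these cell type differences in the results was not tested, and in samples of many cells a smaller share of cycling cells and less RNA per cycling cell cannot be told apart.

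Every one of the 49 genes was read in every library, from 25 counts of Orc1 in KP 5 to 27454 counts of Paics in the same library. Divided by exon length, Paics was the most abundant at 136 CPM per kilobase over the 10 libraries. Paics encodes a bifunctional enzyme of purine synthesis, and Pcna, the clamp, followed at 44.5 CPM per kilobase. Next came Gins4 at 20.7, Mcm7 at 18.8, Ppat at 17.7 and Mcm4 at 17.5 CPM per kilobase. The SDs within a group exceeded the steps between these neighbors, except for Gins4 in KPG1 (SD 0.910 CPM per kilobase). The lowest were Orc1, the regulated ORC subunit, at 0.864, the helicase assembly factor Mcm10 at 1.05 and Cdc6 at 1.20 CPM per kilobase. The 4 GINS subunits form 1 complex, but Gins4 was read 8.72 to 18.9 times as high per kilobase as Gins3 across the libraries. By group, median levels were 16.6 CPM per kilobase for the 5 purine genes, 8.23 for the 12 licensing genes, 7.97 for the 10 genes of the clamp, its loader, RPA and strand joining, 7.57 for the 3 pyrimidine genes, 6.18 for the 5 deoxynucleotide genes, 2.66 for the 8 polymerase and primase genes and 2.09 for the 6 genes of helicase activation.

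**Figure D1:**
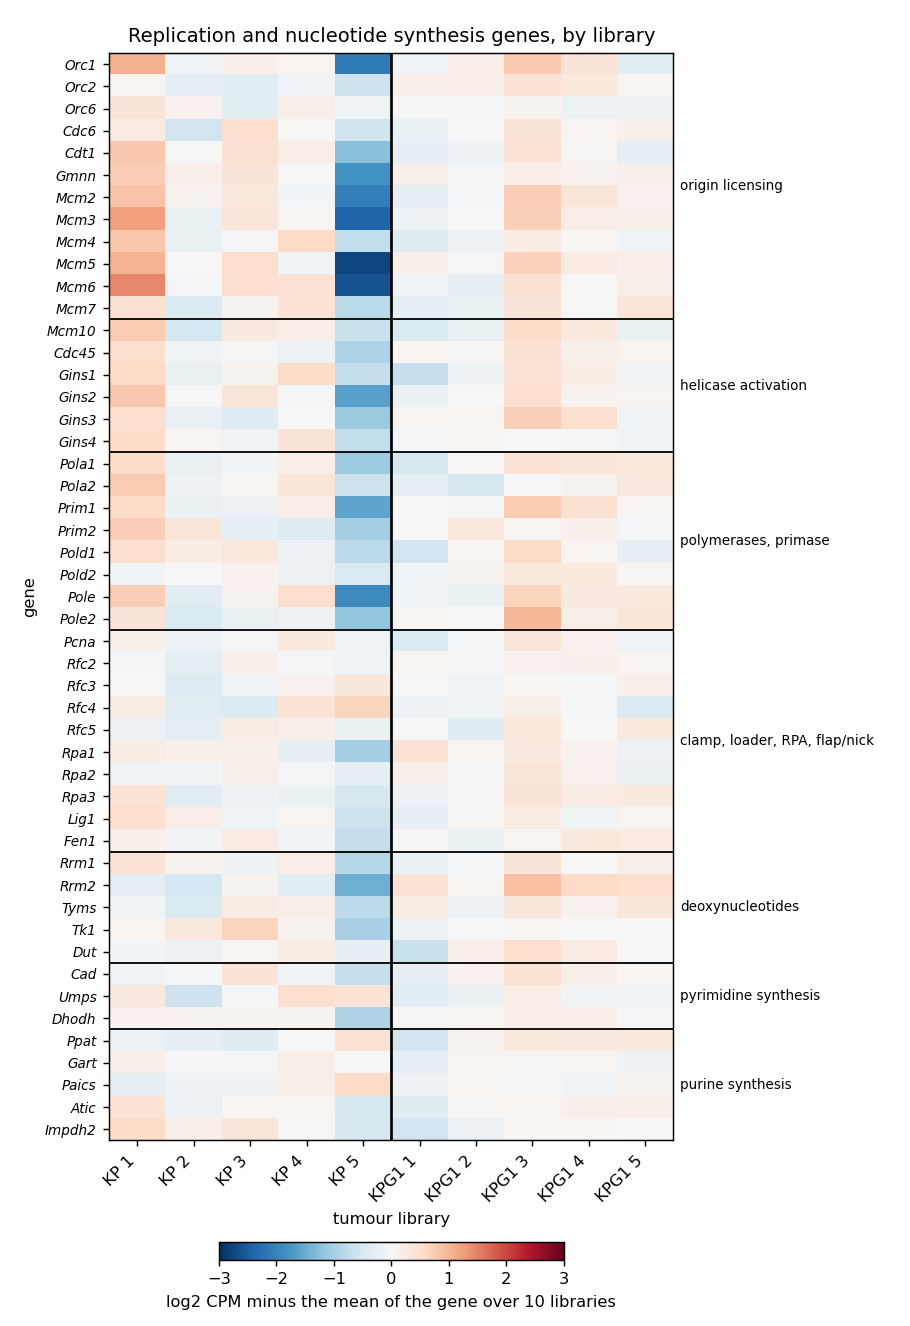
Level of each of the 49 genes (rows, grouped by role) in each of the 10 libraries (columns), as log2 CPM minus the mean of that gene, with red above and blue below the mean. KP 5 is the lowest column for every licensing gene except Orc6, for every helicase activation gene and for every polymerase gene, and it is red for Rfc3, Rfc4, Ppat and Paics, while KP 1 is the highest column for 10 of the 12 licensing genes.

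No gene of the 49 passed the test between the genotypes at an adjusted p under 0.05 over all 16216 genes (limma-voom), against 0.0617% of all genes higher and 0.111% lower in KPG1. At an unadjusted p under 0.05, 3 of the 49 were higher in KPG1 and 0 lower beside 5.26% and 6.31% of all genes. The 3 were Rrm2, Orc2 and Pole2, and their adjusted p-values were 0.183, 0.239 and 0.430. DESeq2 called 1 of the 49 at an adjusted p under 0.05, Rrm2 at 0.0241, where it called 0.771% of all genes higher and 2.61% lower. At an unadjusted p under 0.05 DESeq2 gave 2 members higher, Orc2 and Rrm2, and 0 lower, beside 5.1% and 8.92% of all genes. Only for Orc2 did all KPG1 libraries lie above all KP libraries, an order that held for 1.05% of all genes, and for no member did they all lie below, against 1.76% of all genes. Fitted log2 fold changes (KPG1 minus KP) were above 0 for 33 of the 49 genes, beside 52.7% of all genes, with a median of 0.15 beside 0.02. That count turned on single libraries, and so did the count at an unadjusted p under 0.05. Without KP 1 the latter was 6 higher and 0 lower, with Cdc45, Gins3 and Rpa3 added (all genes, 5.59% and 5.83%), and without KP 5 it was 2 higher and 1 lower (all genes, 8.51% and 10%). In neither fit did a member pass an adjusted p under 0.05, where 0.0183% of all genes were higher and 0.0183% lower without KP 1, and 0.431% and 1.35% without KP 5. Without KP 5, 20 of the 49 were above 0 (all genes, 50.5%; median -0.10), and without KP 1, 41 of the 49 were above 0 (all genes, 51.6%; median 0.22).

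**Figure D2:**
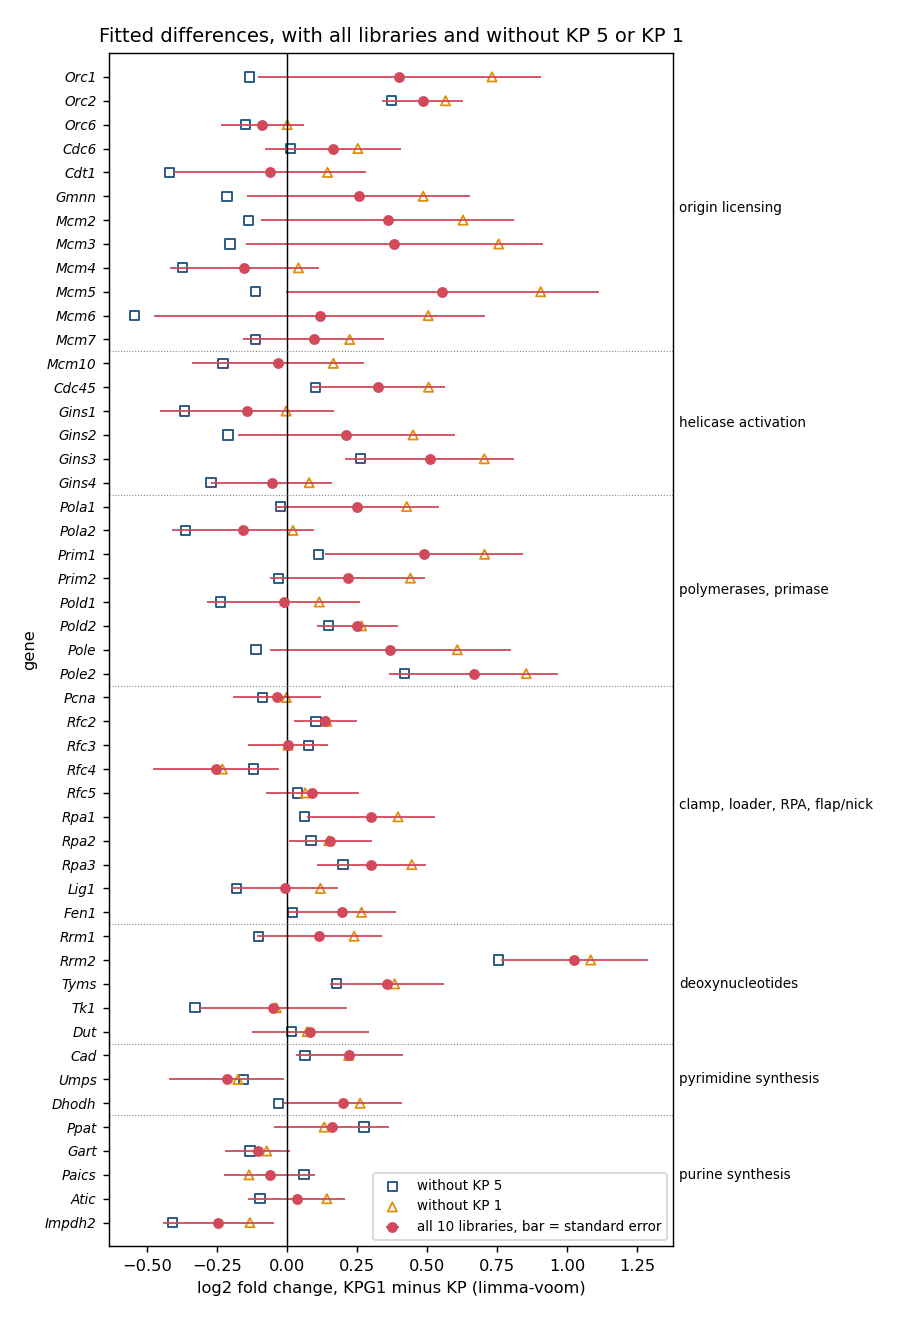
Fitted log2 fold change (KPG1 minus KP, limma-voom) of each of the 49 genes with all 10 libraries (filled circles, bars are standard errors), without KP 5 (squares) and without KP 1 (triangles). For the licensing genes other than Orc2 and Cdc6 the squares lie below 0, whereas Rrm2 is at 1.02 with all libraries, 0.75 without KP 5 and 1.08 without KP 1.

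Among the 12 licensing genes, 9 had fitted values above 0 and 3 below, with a median log2 fold change of 0.21 that moved to -0.14 without KP 5 and to 0.49 without KP 1. Orc2 (ENSMUSG00000026037, chr1:58462771-58505109 on the minus strand, GRCm38) encodes a core ORC subunit. Its transcript stood at 5.07, 4.72, 4.69, 4.93 and 4.38 log2 CPM across KP 1 to 5 and at 5.16, 5.19, 5.44, 5.33 and 5.09 across KPG1 1 to 5. KP 1 came closest to the KPG1 libraries but the groups did not overlap, and the fitted difference was 0.48 (SE 0.14, unadjusted p = 0.00615, limma-voom adjusted p = 0.239). Orc2 shares 1150 exon bases (29.8% of its exons) with Nif3l1 on the opposite strand, whose own fitted difference was 0.26 (unadjusted p = 0.114), and reads of the pair cannot be told apart if the counting ignored strand. With library sizes alone as the scale the groups overlapped. Orc6, another ORC subunit, had a fitted difference of -0.09 (SE 0.15). The level of Orc2 minus that of Orc6 in the same library was -0.31 to 0.20 log2 units in KP and 0.30 to 0.68 in KPG1, a contrast chosen after the values were seen. Gmnn, the licensing inhibitor, spread from 1.20 to 3.76 log2 CPM in KP but from 2.97 to 3.22 in KPG1. Cdt1, the loader that Gmnn binds, had a fitted difference of -0.06 (SE 0.34), and Cdc6 and Orc1 of 0.16 (SE 0.24) and 0.40 (SE 0.51).

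The helicase ring genes carried the widest spread. Mcm5 was at 5.82, 4.80, 5.26, 4.69 and 2.03 log2 CPM in KP 1 to 5 and at 4.94, 4.80, 5.47, 5.03 and 4.98 in KPG1 1 to 5. The 5 KPG1 values lay inside the range of the KP values, whose lowest was KP 5, and the fitted difference of 0.55 (SE 0.56, adjusted p = 0.741, limma-voom) became -0.11 without KP 5 and 0.90 without KP 1. Mcm3 was at 6.49, 5.04, 5.62, 5.35 and 2.85 in KP and 5.11, 5.24, 5.97, 5.45 and 5.44 in KPG1, and Mcm6 at 7.17, 5.69, 6.22, 6.15 and 3.12 in KP and 5.61, 5.49, 6.18, 5.72 and 5.90 in KPG1. For both genes the KPG1 libraries sat within the KP range, and the fitted differences of 0.38 (SE 0.53) and 0.12 (SE 0.59) became -0.20 and -0.54 without KP 5 and 0.75 and 0.50 without KP 1. Over the 6 ring genes the median fitted difference was 0.24 with all libraries, -0.17 without KP 5, 0.57 without KP 1 and 0.02 without both.

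The ring holds 1 copy of each of its 6 subunits, and in KP 5 their transcripts lay at separate levels although all 6 were at their lowest. Mcm4 and Mcm7 were read there at 9.94 and 10.3 CPM per kilobase, while Mcm2, Mcm3, Mcm5 and Mcm6 were at 1.70, 1.91, 1.01 and 1.86. As geometric means the first pair stood 6.44 times above the other 4 in KP 5, against 1.43 times in KP 1, 1.66 in KP 2, 1.53 in KP 3, 2.64 in KP 4 and 1.58 to 1.93 times in the 5 KPG1 libraries. This grouping was chosen after the values were seen. Mcm7 shares 321 exon bases with Ap4m1 and 64 with Cops6 on the opposite strand, and a pseudogene matches 72.8% of its transcript.

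**Figure D3:**
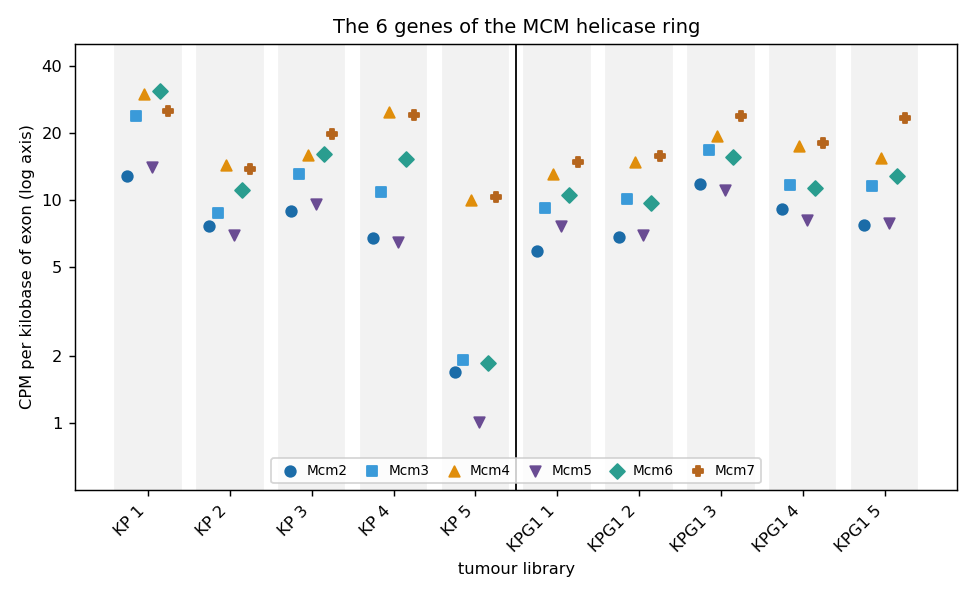
Level of the 6 genes of the MCM helicase ring in each library, as CPM per kilobase of exon on a log axis. All 6 genes are lowest in KP 5, where Mcm4 and Mcm7 lie at 9.94 and 10.3 and the other ring genes between 1.01 and 1.91.

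Helicase activation genes split evenly, with 3 of 6 fitted above 0 and a median of 0.09 (-0.22 without KP 5 and 0.31 without KP 1). Gins3, a GINS subunit, had the largest value of this group, at 2.44, 1.73, 1.55, 1.95 and 0.83 log2 CPM in KP and 2.03, 2.03, 2.67, 2.42 and 1.84 in KPG1. The KPG1 values overlapped the upper KP values, and the fitted difference was 0.51 (SE 0.30, adjusted p = 0.544, limma-voom), or 0.26 without KP 5 and 0.70 without KP 1. Its partners gave -0.14 (SE 0.31) for Gins1, 0.21 (SE 0.39) for Gins2 and -0.06 (SE 0.22) for Gins4. Gins2 shares 67.3% of its exon bases with Gse1 on the opposite strand, a gene read at 135 CPM. Cdc45, the ring's activating partner, and Mcm10 had fitted differences of 0.32 (SE 0.24) and -0.03 (SE 0.31). KP 5 was the lowest library for all 6 of these genes.

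Of the 8 polymerase and primase genes, 6 were fitted above 0 and 2 below, with a median of 0.25 that was -0.03 without KP 5 and 0.43 without KP 1. Pole2 (ENSMUSG00000020974, chr12:69201773-69228195, minus strand) encodes the second subunit of polymerase epsilon, the enzyme of the leading strand. It was at 2.89, 2.05, 2.30, 2.34 and 1.31 log2 CPM in KP and 2.60, 2.49, 3.51, 2.68 and 2.88 in KPG1. KPG1 3 was the highest and KP 5 the lowest library, the groups overlapped through KP 1, and the fitted difference of 0.67 (SE 0.30, unadjusted p = 0.0484, limma-voom adjusted p = 0.430) was 0.42 without KP 5 (unadjusted p = 0.133, adjusted p = 0.413). The catalytic subunit of the same enzyme, Pole, spread from 2.18 to 4.83 log2 CPM in KP and had a fitted difference of 0.37 (SE 0.43), or -0.11 without KP 5. Primase starts every new strand, and its subunits Prim1 and Prim2 gave 0.49 (SE 0.35) and 0.22 (SE 0.28). The polymerase alpha subunits Pola1 and Pola2 gave 0.25 (SE 0.29) and -0.16 (SE 0.25), and Pold1 and Pold2 of polymerase delta gave -0.01 (SE 0.27) and 0.25 (SE 0.14).

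The genes of the clamp, its loader, RPA and strand joining had the narrowest spread of the replication groups, with a median SD of 0.30 log2 units over KP and 0.21 over KPG1, against 0.89 and 0.26 for licensing. Of 10, 7 were fitted above 0, with a median of 0.11 (0.05 without KP 5). Pcna was at 6.87, 6.56, 6.67, 7.01 and 6.58 log2 CPM in KP and 6.30, 6.69, 7.08, 6.85 and 6.59 in KPG1, so that both the lowest and the highest library were KPG1 libraries (fitted difference -0.04, SE 0.16). Its pseudogene Pcna-ps2, close to identical over 51.4% of the transcript, held 19 to 41 counts. Rpa3, the smallest RPA subunit, had the smallest p of the group. It was at 3.65, 2.91, 3.08, 3.05 and 2.77 in KP and 3.07, 3.29, 3.62, 3.47 and 3.54 in KPG1, with KP 1 above all other libraries and the remaining KP libraries near or below the lowest KPG1 value (fitted difference 0.30, SE 0.20, adjusted p = 0.585, limma-voom, or 0.20 without KP 5). Rfc2, a clamp loader subunit, and Rpa2 were with Gart the 3 genes of the narrowest range among the 49. Rpa2 was at 3.90, 3.86, 4.18, 3.97 and 3.73 in KP and 4.15, 3.95, 4.36, 4.12 and 3.79 in KPG1, and Rfc2 at 4.93, 4.71, 5.13, 4.95 and 4.84 in KP and 5.05, 4.92, 5.12, 5.12 and 5.04 in KPG1. Their fitted differences were 0.15 (SE 0.15) and 0.14 (SE 0.11), within the overlap of the groups. The loader subunit Rfc4 had the lowest fitted value of the 49, -0.25 (SE 0.23, adjusted p = 0.700, limma-voom), at 3.98, 3.42, 3.36, 4.18 and 4.43 in KP and 3.57, 3.65, 3.93, 3.71 and 3.35 in KPG1. KP 5 was here the highest library, Rfc4 shares 12.7% of its exon bases with the abundant Eif4a2 on the opposite strand, and without it the value was -0.12. The flap nuclease Fen1 and the ligase Lig1, which finish lagging-strand fragments, gave 0.20 (SE 0.19) and -0.01 (SE 0.19).

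Of the 5 deoxynucleotide genes 4 were fitted above 0, with a median of 0.11 that was 0.02 without KP 5 and 0.24 without KP 1. Rrm2 among them had the largest fitted difference of the 49 genes. It encodes the small, cell-cycle regulated subunit of ribonucleotide reductase (ENSMUSG00000020649, chr12:24708241-24714146, plus strand), which together with Rrm1 makes deoxyribonucleotides. Its level was 3.68, 3.44, 4.08, 3.64 and 2.51 log2 CPM in KP 1 to 5 and 4.40, 4.05, 4.86, 4.57 and 4.49 in KPG1 1 to 5. The groups touched only at KP 3 and KPG1 2, whose values differ by a few hundredths of a log2 unit, and the other KP libraries lay below every KPG1 library. The fitted difference was 1.02 (SE 0.26, unadjusted p = 0.00232, limma-voom adjusted p = 0.183), and 0.75 without KP 5 (unadjusted p = 0.00236, adjusted p = 0.0759). Over all settings tried, the adjusted p of Rrm2 ranged from 0.0241 to 0.410. The large subunit gene Rrm1 was at 6.64, 6.30, 6.05, 6.41 and 5.34 in KP and 6.00, 6.16, 6.59, 6.19 and 6.37 in KPG1, with full overlap (fitted difference 0.11, SE 0.22, or -0.10 without KP 5). Rrm2 minus Rrm1 within a library was -2.96 to -1.98 log2 units in KP and -2.11 to -1.60 in KPG1, overlapping through KP 3. KP 5, low for both subunits, did not stand apart in this contrast, at -2.83, and the contrast was chosen after the values were seen. Thymidylate synthase (Tyms) had a fitted difference of 0.36 (SE 0.20), the salvage enzyme thymidine kinase (Tk1) of -0.05 (SE 0.26) and Dut, which removes dUTP, of 0.08 (SE 0.21).

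**Figure D4:**
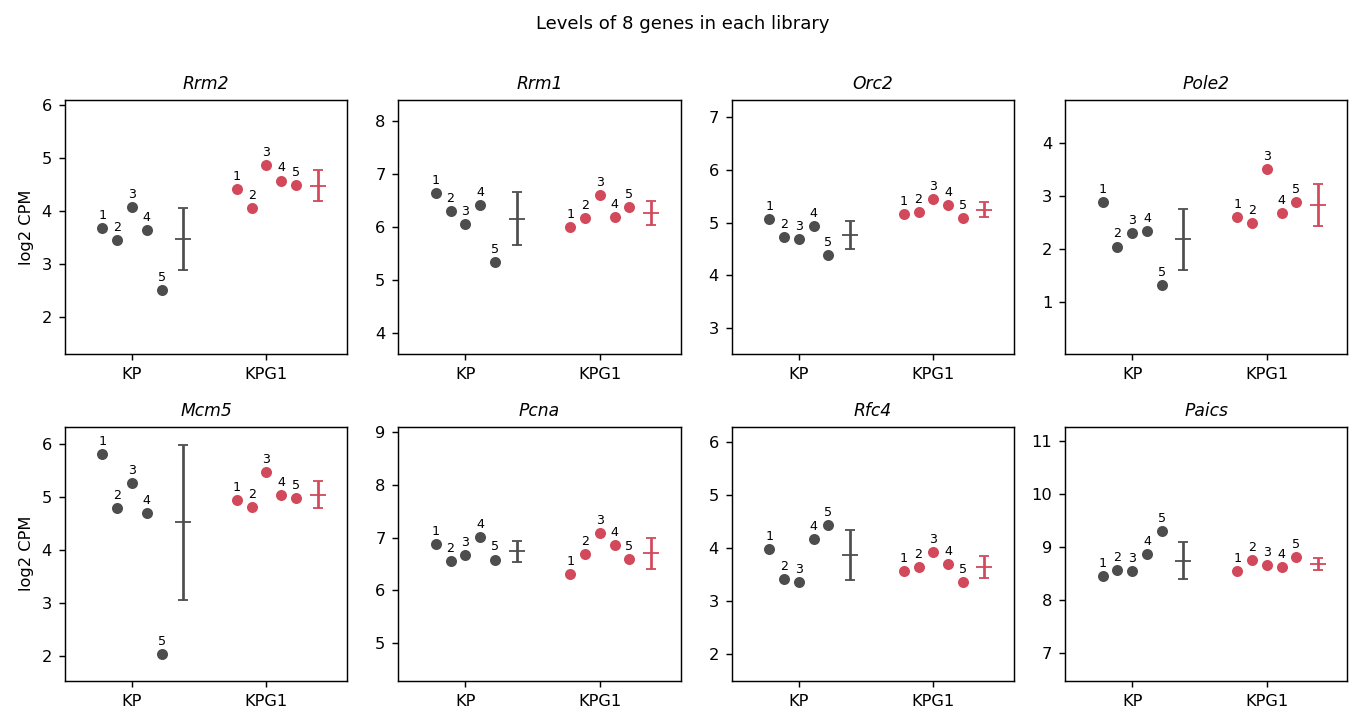
Log2 CPM of 8 genes in each library (points, numbered by library within KP and KPG1), with the mean and SD of each group (bars, n = 5); every panel spans the same number of log2 units. Orc2 separates the groups, Rrm2 nearly does, and KP 5 is the lowest point for Mcm5 and the highest for Rfc4 and Paics.

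Pyrimidine synthesis is run by 3 genes in this list, and 2 of them were fitted above 0 with a median of 0.20, which was -0.03 without KP 5. Cad, whose protein carries the first 3 enzyme activities, was at 5.80, 5.89, 6.32, 5.81 and 5.24 log2 CPM in KP and 5.69, 6.05, 6.36, 6.09 and 5.97 in KPG1. The groups overlapped throughout (fitted difference 0.22, SE 0.19, adjusted p = 0.692, limma-voom), and without KP 5 the value was 0.06. Dhodh, the mitochondrial enzyme of the pathway, was at 3.73, 3.70, 3.71, 3.72 and 2.70 in KP and 3.63, 3.69, 3.81, 3.80 and 3.56 in KPG1. The libraries other than KP 5 kept close to each other, and KP 5 lay 1 unit below them (fitted difference 0.20, SE 0.21, or -0.03 without KP 5). Umps, which finishes uridine monophosphate, was at 5.32, 4.44, 4.99, 5.55 and 5.45 in KP and 4.73, 4.86, 5.25, 4.94 and 4.97 in KPG1, with the highest and the lowest library both KP (fitted difference -0.22, SE 0.20).

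Of the 5 purine genes 3 were fitted below 0, and with all libraries theirs was the 1 group median below 0, -0.06. Without KP 5 it was -0.10, and the licensing, helicase activation, polymerase and pyrimidine medians were then below 0 too. Impdh2, the gate to guanine nucleotides, was at 6.13, 5.74, 5.93, 5.58 and 5.10 log2 CPM in KP and 5.01, 5.40, 5.63, 5.63 and 5.58 in KPG1. KP 1 and KP 3 stood highest and KPG1 1 and KP 5 lowest, so the groups overlapped, and the fitted difference of -0.25 (SE 0.20, unadjusted p = 0.242, adjusted p = 0.668, limma-voom) became -0.41 without KP 5 (unadjusted p = 0.0261, adjusted p = 0.202). That made it the 1 member below 0 at an unadjusted p under 0.05 in that fit, where 10% of all genes were. Impdh2 is also uncertain because the table lists a pseudogene, Impdh2-ps, that matches 83.2% of its transcript at 99.7% identity and held 1523 to 3539 counts per library. Gart, which carries 3 steps of the pathway, was at 6.59, 6.36, 6.36, 6.58 and 6.41 in KP and 6.11, 6.50, 6.45, 6.47 and 6.24 in KPG1 (fitted difference -0.11, SE 0.11). Paics was at 8.45, 8.57, 8.55, 8.86 and 9.30 in KP and 8.55, 8.76, 8.66, 8.62 and 8.82 in KPG1. Here KP 5 was the highest library, the reverse of its place for the ring genes, and the fitted difference was -0.06 (SE 0.16), or 0.06 without KP 5. Ppat, the first committed enzyme, starts head to head with Paics on the opposite strand and shares 272 exon bases with it, and it too was highest in KP 5, at 6.70 against 6.07, 5.97, 5.89 and 6.26 in KP 1 to 4 and 5.69, 6.37, 6.55, 6.52 and 6.56 in KPG1. Atic, the last enzyme before inosine monophosphate, did not share this and was lowest in KP 5 (fitted difference 0.03, SE 0.17).

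The genes spread more widely over the 5 KP libraries than over the 5 KPG1 libraries, and KP 5 and KP 1 formed the ends of that spread. KP 5 was the lowest of the 10 libraries for 37 of the 49 genes, against 20.2% of all genes, and KP 1 the highest for 25, against 15.3%. In KPG1, library 3 was the highest for 14 members, against 8.53% of all genes. The SD over the 5 KP libraries exceeded that over the 5 KPG1 libraries for 43 of the 49 genes, beside 73.5% of all genes, with median SDs of 0.50 and 0.23 log2 units. Without KP 5 this held for 33 members and 61.3% of all genes, and without KP 1 and KP 5 for 21 members and 52.7%, with median SDs of 0.23 and 0.23. KP 5 lay more than 1 log2 unit below every other KP library for 12 members, beside 6.39% of all genes, and 7 of these 12 were licensing genes. The median distance of KP 5 from the median of the other KP libraries was -1.83 log2 units for licensing, -1.06 for polymerases, -1.02 for deoxynucleotides, -1.0 for helicase activation, -0.61 for pyrimidines, -0.20 for the clamp group and -0.06 for purines. It ran from -3.07 for Mcm6 to 0.74 for Paics. The mean of the 12 licensing genes was 5.30, 4.41, 4.74, 4.67 and 3.04 log2 CPM in KP 1 to 5 and 4.43, 4.49, 4.99, 4.66 and 4.58 in KPG1 1 to 5, so KP 1 and KP 5 bracketed all KPG1 libraries. The mean of the 5 purine genes stayed between 6.54 and 6.77 in KP, but KP 5 was the highest library for 2 of them and the lowest for 1. Taken singly, the purine genes had a median SD of 0.33 log2 units over KP.

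**Figure D5:**
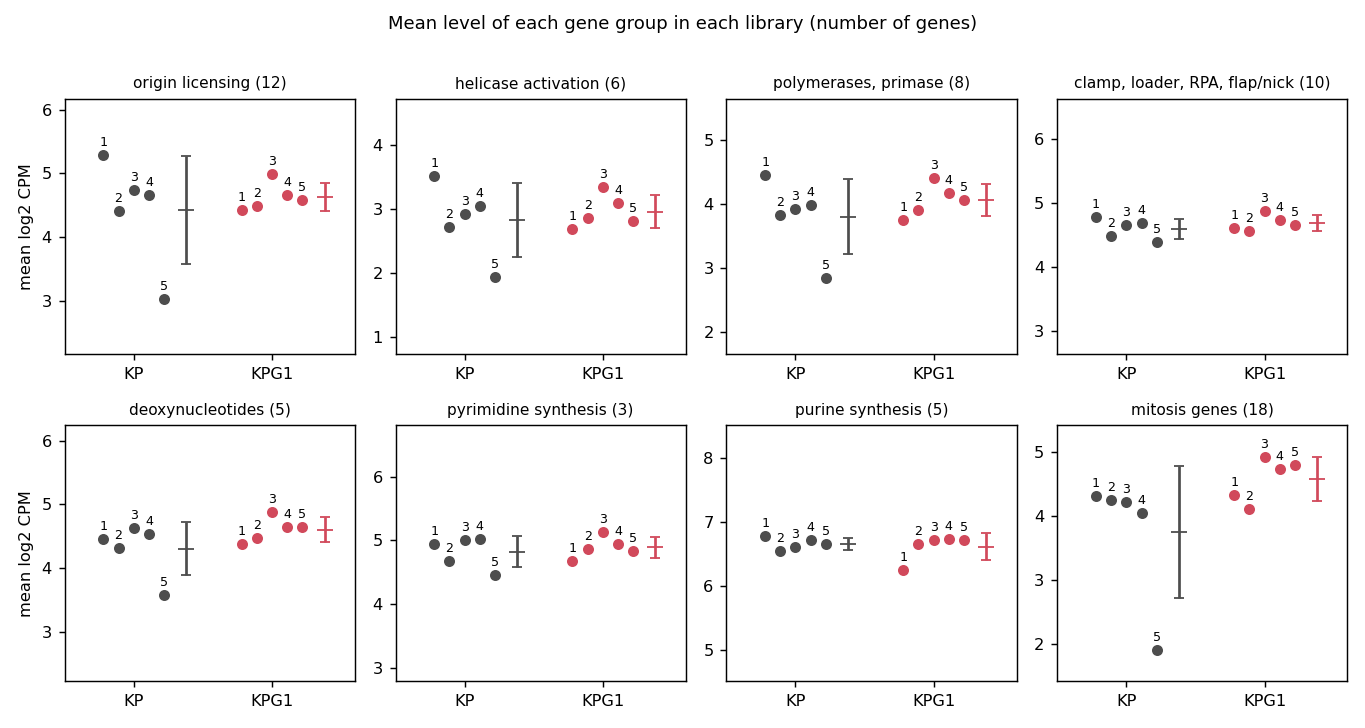
Mean log2 CPM of each of the 7 gene groups, and of 18 mitosis genes, in each library (points, numbered within KP and KPG1), with mean and SD of each group (bars, n = 5); every panel spans the same number of log2 units. KP 5 is the lowest point for mitosis and for every gene group except purine synthesis, where the lowest is KPG1 1.

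KP 5 was the lowest library for 11 of the 12 licensing genes and KP 1 the highest for 10. The sequences around the starts of the members were examined for the letters of sites that are textbook features of S-phase promoters. E2F factors bind such sites and switch on replication genes at the entry to S phase, and 4 spellings, TTTCCCGC, TTTCGCGC, TTTGCCGC and TTTGGCGC, were searched on both strands. The spellings can overlap each other, and they do in Mcm5. RefSeq promoter windows of GRCm38.p6, from 250 bases before to 50 bases after a start, were at hand for 40 of the 49 genes, and 14 of the 40 held at least 1 E2F spelling (35%), beside 2.60% of 27025 genes. All 4 spellings hold a CG, and members and all genes were not matched for base composition or gene type. CCAAT, the NF-Y site, was held by 62.5% of the members and 41.1% of all genes. CACGTG, the E-box that Myc proteins bind, was held by 20% and 8.09%, and TTTGAA, the cell cycle homology region (CHR) of late cell cycle genes, by 15% and 20.2%. E2F spellings were in 7 of 10 licensing windows (Orc1, Cdc6, Cdt1, Mcm3, Mcm5, Mcm6 and Mcm7), 1 of 3 for helicase activation, 3 of 6 for polymerases, 2 of 9 for the clamp group, 0 of 5 for deoxynucleotides, 0 of 2 for pyrimidines and 1 of 5 for purines. Gins2, Gins4, Gmnn, Dhodh, Pole, Gins1, Prim2, Rfc2 and Mcm4 had no entry. The windows below are those of the 5 E2F holders with the smallest p, of the purine gene with the smallest p and of Rrm2, the gene with the largest difference. They run 5′ to 3′ along the gene and end at most 30 bases past the first annotated start. Gins3 and Impdh2 are cut to the 30 bases around the match, because their annotated starts differ. Capitals mark the E2F spelling, in Impdh2 the E-box and in Rrm2 the CCAAT.
Pole2, chr12:69228166-69228360, minus strand: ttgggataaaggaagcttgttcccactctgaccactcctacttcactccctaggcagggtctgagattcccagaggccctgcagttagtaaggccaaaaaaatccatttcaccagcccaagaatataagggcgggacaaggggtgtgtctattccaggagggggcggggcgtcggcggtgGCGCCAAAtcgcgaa
Gins3, chr8:95633507-95633536, plus strand: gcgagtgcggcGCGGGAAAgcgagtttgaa
Mcm5, chr8:75109339-75109538, plus strand: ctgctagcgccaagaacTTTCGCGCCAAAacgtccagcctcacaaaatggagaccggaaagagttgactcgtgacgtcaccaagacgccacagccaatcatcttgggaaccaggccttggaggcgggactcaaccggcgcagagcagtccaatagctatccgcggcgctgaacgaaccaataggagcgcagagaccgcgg
Pola1, chrX:93632126-93632325, minus strand: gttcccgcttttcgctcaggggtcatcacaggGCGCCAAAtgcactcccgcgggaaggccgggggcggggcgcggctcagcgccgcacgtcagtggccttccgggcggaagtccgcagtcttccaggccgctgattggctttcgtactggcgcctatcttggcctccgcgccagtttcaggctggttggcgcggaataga
Orc1, chr4:108579284-108579452, plus strand: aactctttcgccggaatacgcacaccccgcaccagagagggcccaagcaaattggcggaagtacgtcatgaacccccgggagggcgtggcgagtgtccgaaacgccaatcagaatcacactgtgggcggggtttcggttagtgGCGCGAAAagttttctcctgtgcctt
Impdh2, chr9:108560314-108560343, plus strand: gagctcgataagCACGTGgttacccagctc
Rrm2, chr12:24708084-24708270, plus strand: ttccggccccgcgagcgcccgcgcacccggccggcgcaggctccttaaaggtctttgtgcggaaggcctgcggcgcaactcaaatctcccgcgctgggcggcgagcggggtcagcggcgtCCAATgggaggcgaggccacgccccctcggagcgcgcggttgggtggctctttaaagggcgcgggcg

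Counted from the RefSeq start as base 1, the E2F match begins at base 11 in Pole2 and at bases -41, -138 and -27 in Gins3, Pola1 and Orc1, and Mcm5 holds overlapping matches at -153 and -149. Rrm2 holds a CCAAT at -50 and none of the 4 E2F spellings in this window, and Impdh2 an E-box at -110. KP 5 was the lowest library for 12 of the 14 members with an E2F spelling and for 17 of the 26 without. Its median distance from the other KP libraries was -1.07 log2 units for the holders and -0.58 for the others, with ranges of -3.07 to 0.68 and -2.28 to 0.74. Holders and others also differ in their gene groups, as 7 of the 14 holders were licensing genes and 1 was a purine gene. By group alone that distance was -1.83 for licensing and -0.06 for purines, so letters and gene group cannot be told apart here. A match of letters describes the sequence and not the binding of a factor.

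Other genes of the same pathways gave the setting for these values, and none of the 92 tested in 4 lists passed an adjusted p of 0.05 with all 10 libraries (limma-voom). The counts below stand beside 52.7% of all genes fitted above 0, and 5.26% higher and 6.31% lower at an unadjusted p under 0.05. Among 33 further replication genes 27 were fitted above 0, with a median of 0.17, and at an unadjusted p under 0.05 there was 1 higher and 2 lower. The higher was Cdc7, the kinase that fires licensed origins, at 2.87, 3.19, 2.99, 2.50 and 1.93 log2 CPM in KP and 3.30, 3.25, 4.11, 3.54 and 3.97 in KPG1. Its groups did not overlap (limma-voom log2 fold change 0.96, SE 0.27, unadjusted p = 0.00404, adjusted p = 0.222). Timeless of the fork protection complex came next (limma-voom log2 fold change 0.55, SE 0.27, unadjusted p = 0.0685, adjusted p = 0.469). The lower ones were Rnaseh2a, a subunit that removes ribonucleotides from DNA (limma-voom log2 fold change -0.43, SE 0.15, unadjusted p = 0.0167, adjusted p = 0.318), and Pold4, the small subunit of polymerase delta (limma-voom log2 fold change -0.39, SE 0.17, unadjusted p = 0.0452, adjusted p = 0.419). Of 29 tested genes among 30 further nucleotide genes 19 were fitted above 0, with a median of 0.08. Mthfd1 of folate metabolism (limma-voom log2 fold change 0.39, SE 0.15, unadjusted p = 0.0249, adjusted p = 0.357) and Prps2, which makes the ribose donor (limma-voom log2 fold change 0.44, SE 0.17, unadjusted p = 0.0268, adjusted p = 0.363), were higher at an unadjusted p under 0.05, and the salvage enzyme Aprt was lower (limma-voom log2 fold change -0.49, SE 0.20, unadjusted p = 0.0340, adjusted p = 0.382). Mthfd1l, the mitochondrial relative of Mthfd1, missed that threshold (limma-voom log2 fold change -0.50, SE 0.25, unadjusted p = 0.0664, adjusted p = 0.464). Of 12 regulators of S phase, 10 were fitted above 0 with a median of 0.39. Cyclin A2 (Ccna2) was the highest of them (limma-voom log2 fold change 1.22, SE 0.36, unadjusted p = 0.00589, adjusted p = 0.238), without overlap of the groups, and Rbl1, a pocket protein that binds E2F factors, was higher too (limma-voom log2 fold change 0.49, SE 0.21, unadjusted p = 0.0352, adjusted p = 0.388). Cdc25a, the phosphatase of S-phase entry, had the lowest value after Myc (limma-voom log2 fold change -0.19, SE 0.23, unadjusted p = 0.438, adjusted p = 0.799). Myc, a transcription factor known to act on nucleotide synthesis genes, was lower (limma-voom log2 fold change -0.62, SE 0.15, unadjusted p = 0.00119, adjusted p = 0.142), at 6.01, 5.91, 6.12, 6.42 and 5.99 log2 CPM in KP and 5.07, 5.53, 5.49, 5.55 and 5.71 in KPG1, again without overlap. Several of these values moved when KP 5 was left out. Without it the fitted difference was 0.78 for Ccna2 (unadjusted p = 0.00106, limma-voom adjusted p = 0.0547), 0.26 for Timeless and -0.34 for Cdc25a, and the medians were 0.08 for the further replication genes, -0.02 for the further nucleotide genes and 0.25 for the regulators. Aprt, at -0.69, then passed the test (limma-voom adjusted p = 0.0386). Rnaseh2a was then at -0.54 (unadjusted p = 0.00177, limma-voom adjusted p = 0.0675).

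The mitosis genes gave larger values than the replication genes. All 18 were fitted above 0, beside 52.7% of all genes, with a median of 0.86, 0.31 without KP 5 and 0.38 without KP 1 and KP 5. Of the 18, 4 had an unadjusted p under 0.05, beside 5.26% of all genes higher at that threshold. Top2a, which untangles chromosomes, and Nusap1 of the spindle had the smallest p-values (limma-voom log2 fold change 1.03, SE 0.40, unadjusted p = 0.0253, adjusted p = 0.360 for Top2a and 0.98, SE 0.38, unadjusted p = 0.0257, adjusted p = 0.361 for Nusap1). Without KP 5 the values were 0.56 for Top2a (unadjusted p = 0.00538, limma-voom adjusted p = 0.105) and 0.55 for Nusap1 (unadjusted p = 0.0391, limma-voom adjusted p = 0.242). The mean of the mitosis list minus the mean of the ring genes was -2.26, -1.23, -1.67, -1.78 and -1.80 log2 units in KP 1 to 5 and -1.11, -1.38, -1.21, -1.01 and -0.95 in KPG1 1 to 5. KP 5 lay inside the KP range of this contrast and KP 2 was the 1 KP library within the range of KPG1, and the contrast was chosen after the values were seen.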

How the data were processed

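Polyadenylated RNA of the CD45-negative fraction of lung tumors was sequenced in 10 libraries, 5 KP and 5 KPG1. The authors trimmed reads with Cutadapt, aligned them to mm10 with HISAT2 and counted them per Ensembl gene with featureCounts 1.4.4, and they deposited raw counts per gene, 1 table for all libraries and 1 per library, which were identical. Tool versions come from the submitters' processing notes (bcl2fastq 2.17, cutadapt 1.4.2), and the study's methods give another Cutadapt version. The strand setting of the counting and the annotation release are not given in the sources used here. The authors also deposited log2 CPM values, scaled by TMM factors and voom, which entered only as an alternative. Columns of the authors' own comparison were not used.

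The deposited counts were filtered (filterByExpr), scaled by TMM and tested with limma-voom (limma 3.58.1, edgeR 4.0.16, R 4.3.3) with genotype as the only term, and Benjamini-Hochberg adjustment ran over all 16216 genes tested. Log2 CPM (counts scaled to library size) used a prior count of 2, and levels per kilobase used exon lengths of GENCODE for GRCm38. The floor of a count of 0 is 3 counts, and it covers counting error only. With 32427029 to 49534284 counts per library the standard errors of the 49 log2 fold changes ran from 0.11 to 0.59. For the 49 genes the alternatives were edgeR's quasi-likelihood test, DESeq2 1.42.0, the deposited log2 table, other scalings, other filters, weights, the replicate numbers, a looser threshold and leaving out libraries, and leaving out KP 1 and KP 5 together was chosen after seeing the data. The fits were tested on simulated data, with the counts of each gene drawn independently. Shifts shared by many genes of a library, as in KP 5, were not simulated. Genes that overlap a member's exons were taken from the annotation, and near-identical copies were found with blastn 2.17.0 (95% identity over at least 20% of the transcript). No chance test was run over the list.

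The 49 genes, their 7 groups and the other gene lists were chosen with earlier results of these data known. All library values are printed for members with an adjusted p under 0.05, for the smallest p and the largest difference of each group, for the 3 lowest differences, for the 3 widest and 3 narrowest ranges and for the highest level. Dhodh and Ppat were added after their values were seen. Of each other pathway list the 2 smallest p-values in each direction are named. The promoter of Rrm2 was shown after its values were seen. The tumor-initiating alleles are not reported here.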

Additional observations from a re-analysis of the deposited data

Results flagged for a closer look

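In 5 of the 118 groups of 5 libraries examined, 1 library lay far from the others by Dixon's criterion, where about 1 in 20 groups (5.9 of 118) would do so by chance. The gap to the nearest library exceeded a share of 0.71 of the whole range in each. Dhodh in KP 5 was at 2.70 log2 CPM, with the other KP libraries at 3.70 to 3.73. Ppat in KPG1 1 was at 5.69 log2 CPM, with the other KPG1 libraries at 6.37 to 6.56, and Atic in KPG1 1 was at 5.85, with the others at 6.26 to 6.40. The mean of the 5 purine genes in KPG1 1 was 6.24 log2 CPM, with the others at 6.66 to 6.72, and this mean contains Ppat and Atic. The mean of the 18 mitosis genes in KP 5 was 1.91 log2 CPM, with the other KP libraries at 4.04 to 4.32.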

How the results depend on the processing

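Under none of the 22 alternatives other than DESeq2, which called Rrm2, did a member pass an adjusted p under 0.05. Leaving out single libraries gave 0 to 0 members past it, 2 to 6 higher and 0 to 1 lower at an unadjusted p under 0.05, 1 to 3 with all KPG1 libraries above all KP libraries (all genes, 1.26% to 3.64%; the 3 without KP 1, all genes 2.05%), and member medians of -0.10 to 0.22. A mean CPM of at least 20 left 1 higher at an unadjusted p, and library size only left 0 without overlap. Without KP 1 and KP 5, 3 members lay above (all genes, 5.74%), 1 below (5.35%) and 1 was lower at an unadjusted p (8.74%). Over all alternatives 30 of the 49 fitted values lay on both sides of 0, 15 stayed above and 4 below. Of the members printed by rule the sign changed for Mcm6 (edgeR -0.33, DESeq2 -0.34, weight per library -0.18, without both -0.26, without KP 5 -0.54), Mcm3 (without KP 5 -0.20), Mcm5 (without KP 5 -0.11) and Paics (weight per library 0.0420, without both 0.00858, without KP 5 0.0603), and the cause was not tested. For single libraries left out, Mcm6 ran from -0.54 to 0.50, Mcm3 from -0.20 to 0.75, Mcm5 from -0.11 to 0.90 and Paics from -0.14 to 0.06. Over all genes 10 were called higher and 18 lower, against 29 lower with edgeR, 125 and 423 with DESeq2, 31 lower with no filter, 5 and 31 with the CPM filter, 51 and 177 with a weight per library, 4 and 4 with the sample number as covariate, 44 lower without both, 23 and 79 at p under 0.1, and 3 to 71 and 1 to 223 without single libraries, the highest counts without KP 5. Genes of the 4 pathway lists passed an adjusted p with DESeq2 (1 higher and 1 lower) and without KP 5 (Aprt, 0 to 1 lower over single libraries). At an unadjusted p, 1 was lower by library size only, 5 higher with the CPM filter, 15 higher with a weight per library, 26 higher and 2 lower with the sample number, 27 higher at p under 0.1, and 3 to 17 higher and 2 to 6 lower without single libraries. Except where printed, the shares of all genes under each of these settings are not set beside these counts or the member counts. The share higher at an unadjusted p under 0.05 differed between settings, at 5.26% with all libraries and 8.51% without KP 5. The counts were therefore not read as a result about these genes. Slc2a1 passed an adjusted p with DESeq2 (-1.04), a weight per library (-1.13), without both (-1.29) and without KP 5, with -1.14 to -0.92 over single libraries. The sample numbers were 11, 12, 15, 16 and 6 in KP 1 to 5 and 10, 1, 4, 5 and 9 in KPG1 1 to 5. As a covariate they largely follow genotype, so that fit cannot fully separate the 2.

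No pairing of the samples by replicate number was seen, and the labels do not say what the numbers mean. Correlations over all tested genes cannot exclude a pairing. To look for one, the mean of each group was first subtracted from each tested gene. The remaining deviations of same-numbered libraries correlated at -0.12, 0.08, 0.06, 0.06 and -0.16, and 1 of 5 correlated best with its own number. With a replicate block 4 of all genes were called higher and 1 lower, and 0 members.

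The lowest count of a member was 25, of Orc1 in KP 5. The standard errors of the ring genes reached 0.59, and differences of that size were not detectable with 5 libraries a group.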
